A study of Mus musculus with 12 samples.

Results

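The RNA levels of 9 genes of blood clotting and clot dissolution were followed in mouse calvarial osteoblasts: F3, Tfpi, Tfpi2, Thbd, Plau, Plaur, Plat, Serpine2 and Serpinf1. They were chosen by name and matched by symbol and gene ID in the authors' tables, which held all 9 among 25511 genes. The cells were freed from the skull vaults of neonatal C57Bl/6J mice and are labelled osteoblast-like. The WT groups came from wild-type mice and the KO groups from mice labelled F2rl1 -/-, that is, without the gene of protease-activated receptor 2 (PAR2), a receptor that proteases switch on by cutting it. After 48 h of preculture, all groups were kept for 4 days in BRFF-HPC1 medium with 20% serum, either unconditioned or conditioned for 48 h by MDA-PCa-2b, a human prostate cancer cell line. The series asked what PAR2 contributes to the response of bone-forming cells to factors from prostate cancer cells, and no label says whether the samples of a group came from separate animals.

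The 12 libraries of the authors' table held 15023994 to 16956754 fragments each. Libraries 0 and 1 of the unconditioned WT group differed by less than the sampling noise and were counted as 1 sample, called library 0 here, which left 11 distinct libraries: 2 in unconditioned WT and 3 in each other group. The table numbers its libraries from 0 and the sample titles from 1, and nothing ties the numbers. The titles repeat the same numbers in both media, such as WT1 Control and WT1 MDA. What a shared number stands for is not stated in the titles. The sample titled WT1 Control carries the KO genotype label and was kept in WT by its title. RNA of F2rl1 was scarce and was not lower in the KO libraries. It had 1.64 and 1.40 CPM (counts scaled to library size) in unconditioned WT and 2.23, 2.33 and 3.10 CPM in unconditioned KO. Every KO library lay above both WT libraries there, against the direction of the label, and 17.1% of all genes did not overlap in that comparison. The log2 difference of F2rl1 was 0.74 (SE 0.48, edgeR adjusted p = 0.998). In conditioned medium F2rl1 had 1.13 ± 0.369 and 1.12 ± 0.702 CPM (SD, n = 3 each) in WT and KO. It therefore gives no support to the genotype labels, and which part of the gene was deleted is not given in the sources used here. WT and KO mean the libraries labelled so throughout. On the first principal component of all genes, which held 46.7% of the variance, conditioned KO library 0 lay at -4.8. The other conditioned KO libraries lay at 64.8 and 79.1 and the 5 unconditioned libraries between -37.3 and -30.8. Conditioned WT libraries 0, 1 and 2 lay at 16.4, 26.6 and -9.7. Conditioned KO library 0 thus fell inside the conditioned WT range, and conditioned KO libraries 1 and 2 lay above all other libraries. Results of the 9 genes that change with conditioned KO library 0 left out are given with and without it. This library was singled out with these same data seen. Values without it describe only how far the results depend on it. Col1a1, Col1a2, Sparc and Spp1 were the most abundant of 10 osteoblast markers (median at least 6450 CPM each), whereas the late markers Bglap, Ibsp and Dmp1 stayed below 1 CPM in every library.

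Tissue factor, encoded by F3, is the cell-surface protein that starts coagulation by binding factor VII. Tissue factor pathway inhibitor (Tfpi) blocks that complex and factor X, and thrombomodulin (Thbd) turns thrombin from a clotting enzyme into an activator of protein C. Clots and matrix are cleared by plasmin, which urokinase (Plau) and tissue plasminogen activator (Plat) release from plasminogen, urokinase while held on the cell by its receptor Plaur. Serpins are protease inhibitors that trap their target: Serpine2, or protease nexin-1, inhibits thrombin and the plasminogen activators. Serpinf1, or PEDF, is a secreted serpin without inhibitory activity that is known in bone for its loss in a brittle bone disease of humans. Several of these enzymes can cut protease-activated receptors, the family to which PAR2 belongs.

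The sequences before the start sites of F3, Tfpi2 and Plaur are shown because each has a RefSeq promoter window (GRCm38.p6) with the AP-1 element. This short motif was searched as TGANTCA, where N is any base. The pattern is identical on both strands, while a single match such as TGAATCA is not. A lower level in conditioned medium does not set these 3 genes apart, since 8 of the 9 were lower in each genotype. Each line gives the 250 bases before the start site, 5′ to 3′ on the gene's strand, with AP-1 matches in capitals. The F3 stretch is chr3:121723287-121723536 on the plus strand, the Tfpi2 stretch chr6:3968376-3968625 on the minus strand and the Plaur stretch chr7:24462233-24462482 on the plus strand.
F3: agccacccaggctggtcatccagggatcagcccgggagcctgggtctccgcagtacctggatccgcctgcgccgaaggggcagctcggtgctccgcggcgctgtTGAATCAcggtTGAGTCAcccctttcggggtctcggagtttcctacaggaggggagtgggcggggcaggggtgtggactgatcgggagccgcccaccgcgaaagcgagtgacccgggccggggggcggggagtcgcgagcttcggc
Tfpi2: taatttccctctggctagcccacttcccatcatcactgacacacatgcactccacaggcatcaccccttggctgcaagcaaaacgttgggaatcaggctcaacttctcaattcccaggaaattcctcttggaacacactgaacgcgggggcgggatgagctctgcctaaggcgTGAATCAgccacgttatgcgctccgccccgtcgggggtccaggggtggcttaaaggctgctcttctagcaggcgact
Plaur: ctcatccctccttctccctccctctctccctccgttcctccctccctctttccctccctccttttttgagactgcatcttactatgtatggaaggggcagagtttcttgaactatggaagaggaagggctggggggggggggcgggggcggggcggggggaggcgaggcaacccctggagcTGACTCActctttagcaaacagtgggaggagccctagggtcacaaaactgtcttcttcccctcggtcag
F3 held the matches TGAATCA at -146 and TGAGTCA at -135, counted from the start site, Tfpi2 held TGAATCA at -77 and Plaur held TGACTCA at -69. In windows from 250 bases before to 50 after the start, 7.81% of 32851 mouse promoters held the element. For 6 of the 9 genes 9 windows were found: 3 for Tfpi2, 2 for Tfpi and 1 each for F3, Plaur, Serpine2 and Serpinf1. The start site of the Tfpi2 window shown lies 21 bases from the end of the locus in the authors' table. The start sites of the other 2 Tfpi2 windows lie 20504 and 20582 bases from it. The Tfpi start sites lie 16 and 2601 bases, and the Serpinf1 start site 8616 bases, from the ends of their loci. Those 2 Tfpi2 windows and the windows of Tfpi, Serpine2 and Serpinf1 held no AP-1 match. This says only that these letters are not in the windows. Another motif, the GC box GGGCGG searched on both strands, was held 6 times by Serpine2, 3 times each by F3 and Plaur, 2 times by the Tfpi2 window shown and 1 time by each Tfpi window, and by none of the other 3 windows, against a share of 35.7% of promoters with at least 1 copy. A match is a description of the sequence, and factor binding was not measured.

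Levels differed widely between the 9 genes. On the FPKM scale, fragments per kilobase scaled to depth by the authors, Serpinf1 ranked 23rd of 23797 named genes by its mean, with 704 to 1297 FPKM over the 11 libraries, and Serpine2 ranked 68th with 371 to 660 FPKM. Thbd followed at rank 184 with 149 to 340 FPKM. F3 ranked 699th with 45.4 to 158.6 FPKM and Tfpi 1442nd with 36.1 to 65.5 FPKM, and these ranges overlap. Plat (10.7 to 32.5 FPKM), Plaur (12.3 to 33.6 FPKM) and Plau (10.03 to 29.1 FPKM) lay close together at ranks 3419, 3460 and 3889, and their ranges could not be told apart. Tfpi2 was the lowest at rank 5243 with 5.01 to 19.4 FPKM. All 9 genes passed the filter on low counts.

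**Figure D1:**
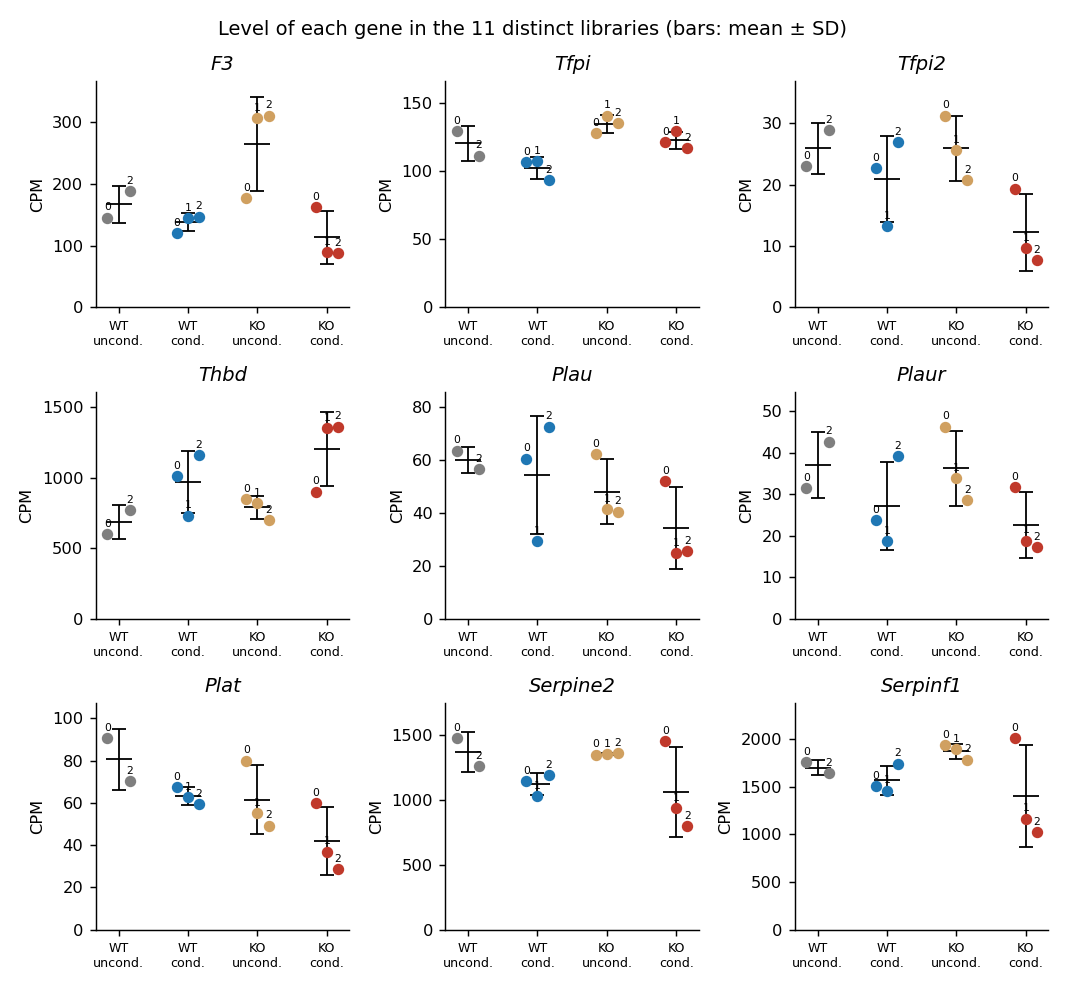
Level in CPM (y axis) of each of the 9 genes in the 11 distinct libraries, by group (x axis), with the library number above each point and bars for the mean ± SD (n = 2 in unconditioned WT, otherwise 3). Conditioned KO library 0 lies apart from libraries 1 and 2 of its group for all genes but Tfpi, for example at 162.7 CPM for F3 against 89.5 and 88.2.

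Averaged over both genotypes, F3 was lower and Thbd higher in conditioned medium. The 6 conditioned and 5 unconditioned libraries overlapped for each of the 9 genes. Of the 9 genes, 2 were called over the mean of both genotypes at an adjusted p under 0.05 (edgeR quasi-likelihood test, Benjamini-Hochberg over 13599 genes), where 20.5% of all genes were called, and 6 of 9 had an unadjusted p under 0.05, as did 36.3% of all genes. Within KO, 1 of 9 was called, F3, against 18.3% of all genes, and within WT 0 of 9 were called, against 1.78%. The WT count was also 0 at an unadjusted p under 0.05, a mark that 15.2% of all genes passed, and 0 by DESeq2, which called 6.52% of all genes there. A negative log2 change was found for 8 of the 9 genes in each genotype, Thbd being the exception. The median log2 change of the 9 was -0.28 in WT and -0.49 in KO, while the median of all genes tested was 0.01 and 0.02. These are bulk samples, in which fewer cells of a type and less RNA per cell cannot be told apart. Marker sums were compared between the media too. The sum of 8 osteoclast markers was 99.5 to 163 CPM in the 5 unconditioned libraries and 234 to 416.5 CPM in the 6 conditioned ones. Nearly all of it was Ctsk (96.5 to 406 CPM). Atp6v0d2 was low but also rose, from 0.723 to 1.62 CPM in unconditioned libraries to 3.67 to 5.86 CPM in conditioned ones. Such a separation of the media was shown by 16.4% of all genes. Mmp9 (0.0662 to 4.70 CPM) overlapped between media. Dcstamp was at 0 in every library, Calcr, Ocstamp and Oscar reached at most 0.203, 0.337 and 0.635 CPM, and Acp5 at most 2.12 CPM. The sum of 10 osteoblast markers was 36630 to 58040 CPM without conditioning and 24460 to 41480 CPM with it, ranges that overlap. The part of these cells in the results was not tested.

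Between genotypes, 0 of 9 genes were called in either medium. In unconditioned medium 0.00735% of all genes were called, and 0 of the 9 reached an unadjusted p under 0.05, against 2.15% of all genes. In conditioned medium 0.00% of all genes were called, and 2 of the 9, Tfpi and Plat, had an unadjusted p under 0.05, as did 13.9% of all genes. DESeq2 called 0 of the 9 in both media (0.00735% and 0.0147% of all genes). The medium effect itself differed between genotypes for 0 of 9 genes at an adjusted p under 0.05 (0.00% of all genes called), and for 1 of 9, F3, at an unadjusted p under 0.05 (3.03% of all genes). DESeq2 called 0 of 9 there. These counts depend on 1 library: without conditioned KO library 0, 4 of the 9 genes were called between genotypes in conditioned medium (33.2% of all genes), 7 in the medium effect in KO (44.9%), 7 in its mean over genotypes (41.6%) and 1 in the difference between genotypes (10.5%). The 7 genes called for medium in KO and over both genotypes were the same, all but Tfpi and Plau. Over both genotypes this moved the log2 change of Tfpi2 from -0.70 to -0.95 (edgeR adjusted p from 0.0887 to 0.00614), of Plaur from -0.56 to -0.73 (0.119 to 0.0278) and of Plat from -0.45 to -0.63 (0.126 to 0.00896). Serpine2 went from -0.32 to -0.47 (0.169 to 0.00339) and Serpinf1 from -0.27 to -0.45 (0.296 to 0.00422). The other 2 counts stayed at 0, for KO against WT in unconditioned medium (0.00737%) and for the medium effect in WT (6.75%).

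Other settings moved the same counts. Unconditioned KO library 0 shares its number with conditioned KO library 0, and without both, 1 of the 9 genes was called between genotypes in unconditioned medium (4.86% of all genes), 7 in conditioned medium (42.6%), 6 for medium in KO (50.4%), 8 over both genotypes (48.6%), 2 for the difference (19.2%) and 0 for medium in WT (11.7%). With the library number as a block, 3 of 9 were called for medium in KO (16.3% of all genes), 4 over both genotypes (19.1%) and 0 in WT (1.14%). When the merged WT library took number 1 in place of 0, the first 2 of these counts were 3 (13.2%) and 3 (13.9%). DESeq2 called 3 of 9 for medium in KO (26.4%) and 3 over both genotypes (26.8%).

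**Figure D2:**
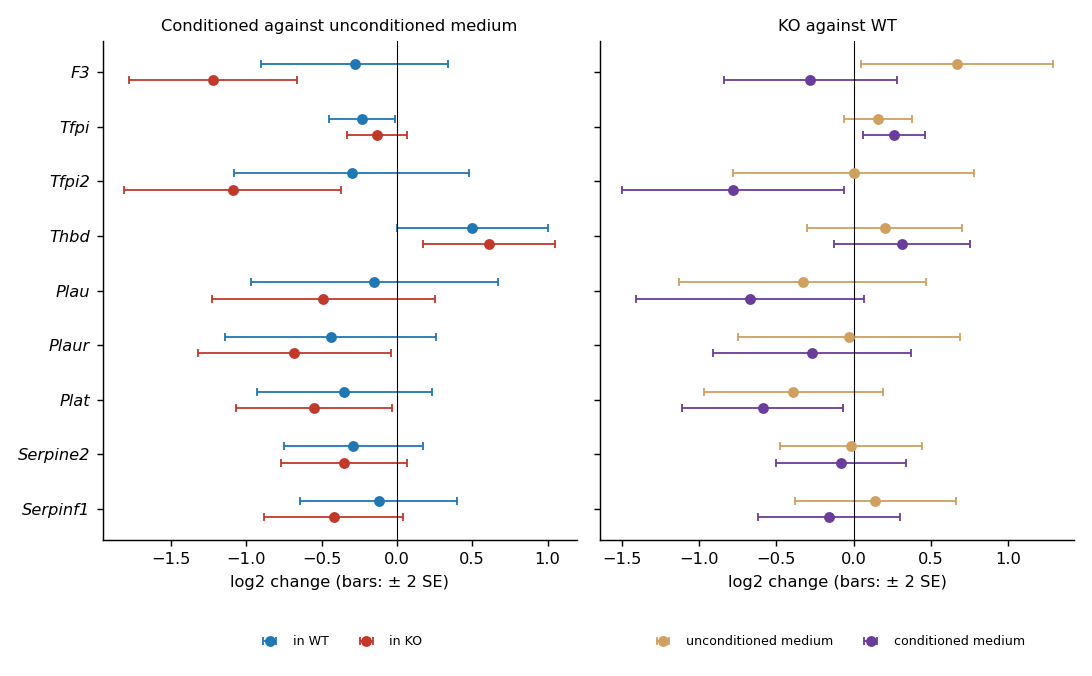
Log2 change (x axis) of each gene with bars of ± 2 SE, for conditioned against unconditioned medium in WT and KO (left) and for KO against WT in each medium (right). In the left panel Thbd alone has points to the right of 0 (0.50 and 0.61), and F3 in KO lies farthest to the left at -1.22.

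F3, which encodes the initiator of coagulation (XLOC_014235, chromosome 3, 121723537 to 121735052, GRCm38), fell with conditioned medium in KO. Its level was 177.8, 306.4 and 311 CPM in unconditioned KO libraries 0, 1 and 2, and 162.7, 89.5 and 88.2 CPM in the conditioned ones. In WT it was 145.8 and 188.1 CPM in unconditioned libraries 0 and 2, and 121, 145 and 147.3 CPM in conditioned libraries 0, 1 and 2. Unconditioned KO libraries 1 and 2 were the highest of all 11, and conditioned KO libraries 1 and 2 the lowest. The KO groups did not overlap, as in 31.2% of all genes, while the WT groups did. The log2 change with medium was -1.22 in KO (SE 0.28, adjusted p = 0.02, edgeR), a fold of 0.428, and -0.28 in WT (SE 0.31, adjusted p = 0.761). Averaged over genotypes it was -0.75 (SE 0.21, adjusted p = 0.0295). That call was lost with the library number as a block (adjusted p = 0.0884) and without unconditioned WT library 0 or 2, conditioned WT library 0 or 1, or library 1 or 2 of either KO group (adjusted p 0.0519 to 0.121). Without conditioned KO library 0 the log2 change was -1.58 in KO (adjusted p = 0.00112) and -0.93 over both genotypes (adjusted p = 0.00224).

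The F3 call in KO rested on 4 libraries: without unconditioned KO library 1 or 2, or conditioned KO library 1 or 2, the edgeR adjusted p was 0.081, 0.0775, 0.089 and 0.0777, over a range of 9.02e-05 to 0.089 for all 21 alternatives. With the library number as a block it was 0.0577. The difference between the genotypes' medium effects was -0.95 (SE 0.42, unadjusted p = 0.0468, adjusted p = 0.818, edgeR), and it was called without conditioned KO library 0 (-1.29, adjusted p = 0.0417, in a range of 0.00687 to 1.0). KO against WT gave 0.67 in unconditioned medium (SE 0.31, adjusted p = 0.998) and -0.28 in conditioned medium (SE 0.28, adjusted p = 0.575). In the authors' deposited table of start-site tests, F3 was marked significant for KO against WT in unconditioned medium, with a log2 change of 0.72 and a q-value of 0.00585; 2.21% of that table's tests were marked, and it counted the identical WT libraries separately. The authors' deposited table also marked F3 for medium in KO, at -1.21 with a q-value of 0.0011, where 16.8% of tests were marked.

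Tfpi encodes the main inhibitor of the tissue factor complex (XLOC_013013, chromosome 2, 84432860 to 84476775). It passed no test in the edgeR fit of all 11 libraries. It had 129.2 and 111.2 CPM in unconditioned WT, 106.6, 107.1 and 93.1 CPM in conditioned WT, 127.5, 140.5 and 134.7 CPM in unconditioned KO and 121.3, 129.1 and 116.8 CPM in conditioned KO. All 3 conditioned WT libraries lay below all other libraries. Within WT the groups did not overlap (42.5% of all genes did not), and the log2 change with medium was -0.23 (SE 0.11, adjusted p = 0.369, edgeR). In conditioned medium every KO library lay above every WT library, as in 8.86% of all genes in either direction, with a log2 change of 0.26 (SE 0.10, unadjusted p = 0.0274, adjusted p = 0.357). That difference did not pass the test, and 1 of 21 alternatives called it. Over both genotypes the log2 change with medium was -0.32 to -0.128 in the alternatives, and 4 of these 21 called it.

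Tfpi2 encodes a related inhibitor of plasmin and other matrix-degrading proteases (XLOC_018633, chromosome 6, 3962595 to 3968354). It was at 23.0 and 28.8 CPM in unconditioned WT and at 22.6, 13.3 and 26.9 CPM in conditioned WT. In KO it was at 31.2, 25.7 and 20.8 CPM without conditioning and at 19.4, 9.62 and 7.66 CPM with it. The KO groups did not overlap, as in 31.2% of all genes, and conditioned WT library 1 stood below the rest of WT. The log2 change with medium was -1.09 in KO (SE 0.36, adjusted p = 0.0603, edgeR) and -0.30 in WT (SE 0.39, adjusted p = 0.804). The KO value passed with the library number as a block (-1.17, adjusted p = 0.0218), in DESeq2 (adjusted p = 0.0185) and without conditioned KO library 0 (-1.58, adjusted p = 0.00325), and the alternatives ranged from 0.00325 to 0.196. Between genotypes in conditioned medium the log2 change was -0.78 (SE 0.36, adjusted p = 0.357, edgeR) and, without that library, -1.27 (adjusted p = 0.0134, range 0.0114 to 0.957). The authors' deposited table marked Tfpi2 for medium in KO (-1.09, q = 0.0011) and for KO against WT in conditioned medium (-0.75, q = 0.0169; 7.20% of tests marked).

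Thbd, the gene of the thrombin receptor thrombomodulin (XLOC_013449, chromosome 2, 148404471 to 148408188), rose with conditioned medium over both genotypes. It had 598.3 and 770.7 CPM in unconditioned WT and 1012, 730.1 and 1160 CPM in conditioned WT. Unconditioned KO libraries had 848.7, 817 and 697.4 CPM and conditioned ones 900.1, 1348 and 1360 CPM. Every conditioned KO library lay above every unconditioned 1 (31.2% of all genes did not overlap there), while conditioned WT library 1 fell inside the unconditioned WT range. Over both genotypes the log2 change was 0.55 (SE 0.17, adjusted p = 0.0418, edgeR), a fold of 1.47. It was 0.50 in WT (SE 0.25, adjusted p = 0.394) and 0.61 in KO (SE 0.22, adjusted p = 0.078), with a difference of 0.11 between them (SE 0.33, 2 SE interval -0.55 to 0.77, adjusted p = 0.941). The call over both genotypes was lost without unconditioned WT library 0 or 2, conditioned WT library 0 or 2, unconditioned KO library 1 or 2, or conditioned KO library 1 or 2 (adjusted p 0.08 to 0.174). Without conditioned KO library 0, Thbd was called in KO as well, at 0.78 (adjusted p = 0.0105, in a range of 0.0105 to 0.236), and the change over both genotypes was 0.64 (adjusted p = 0.00633). The call over both genotypes was kept with the library number as a block (adjusted p = 0.0384), but not when the merged WT library took number 1 (0.0772).

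Thbd is also a gene of blood vessel lining, and the summed level of 10 endothelial markers was mostly higher in conditioned medium, with overlap. That sum was 15.2 to 19.2 CPM in the 5 unconditioned libraries and 18.4 to 28.4 CPM in the 6 conditioned ones. Kdr and Vwf alone were higher in every conditioned library than in every unconditioned 1. A separation in either direction was shown by 16.4% of all genes. Kdr was at most 2.43 CPM unconditioned and at least 2.51 CPM conditioned, and Vwf at most 0.46 and at least 0.809 CPM. The other markers overlapped between media. Of the 10 markers, 0 were at 0 in every library. Egfl7 (4.68 to 11.3 CPM), Kdr (0.494 to 7.67), Tek (0.917 to 4.89), Cdh5 (1.42 to 4.31), Flt1 (0.323 to 3.11), Vwf (0.212 to 2.06) and Esam (0.337 to 1.12) were found in every library, as was Pecam1 (0.0622 to 0.473), while Tie1 and Emcn were at 0 in some and reached 0.0699 and 0.135 CPM. Kdr was highest in conditioned KO libraries 1 and 2 (7.67 and 6.90 CPM), which also had the most Thbd. Flt1 went the other way and was lowest in these libraries, at 0.913 and 0.323 CPM. Conditioned WT library 1 had 6.75 CPM of Kdr but only 730.1 CPM of Thbd, inside the unconditioned WT range. The part of endothelial cells in the Thbd result was not tested.

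Plau encodes urokinase, a plasminogen activator that works at the cell surface (XLOC_006420, chromosome 14, 20836662 to 20843388). Its levels were 63.5 and 56.6 CPM in unconditioned WT, 60.5, 29.4 and 72.5 CPM in conditioned WT, 62.1, 41.3 and 40.4 CPM in unconditioned KO, and 52.0, 24.8 and 25.4 CPM in conditioned KO. Conditioned WT library 1 and conditioned KO libraries 1 and 2 were low together, and all groups overlapped. The log2 change with medium was -0.15 in WT (SE 0.41, adjusted p = 0.921, edgeR) and -0.49 in KO (SE 0.37, adjusted p = 0.352). KO against WT in conditioned medium gave -0.67 (SE 0.37, adjusted p = 0.385), and -1.09 without conditioned KO library 0 (adjusted p = 0.0412, range 0.0357 to 0.957). The authors' deposited table marked that comparison (-0.67, q = 0.0103).

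Plat encodes tissue plasminogen activator, the secreted activator that works on fibrin (XLOC_021723, chromosome 8, 22757744 to 22782848). It measured 90.7 and 70.4 CPM in unconditioned WT and 67.6, 62.6 and 59.4 CPM in conditioned WT, without overlap, as in 42.5% of all genes. In KO it measured 80.0, 55.3 and 49.3 CPM without conditioning and 60.0, 36.9 and 28.7 CPM with it, where the groups overlapped through library 0. Within each KO number the conditioned library was the lower. Medium gave a log2 change of -0.35 in WT (SE 0.29, adjusted p = 0.657, edgeR) and -0.55 in KO (SE 0.26, adjusted p = 0.156), and the KO value passed with the library number as a block (-0.59, adjusted p = 0.0281) and without conditioned KO library 0 (-0.90, adjusted p = 0.0088), in a range of 0.00777 to 0.433. For KO against WT in conditioned medium the log2 change was -0.59 (SE 0.26, unadjusted p = 0.049, adjusted p = 0.357), and -0.93 without conditioned KO library 0 (adjusted p = 0.0117, range 0.00189 to 0.957). The authors' deposited table marked Plat for this comparison (-0.61, q = 0.0174) and for medium in KO (-0.56, q = 0.0371).

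Plaur, the urokinase receptor (XLOC_019539, chromosome 7, 24462500 to 24475873), had 31.5 and 42.7 CPM in unconditioned WT, 23.8, 18.8 and 39.2 CPM in conditioned WT, 46.3, 34.0 and 28.6 CPM in unconditioned KO, and 31.8, 18.8 and 17.3 CPM in conditioned KO. Groups overlapped in both genotypes, although each conditioned KO library lay below the unconditioned 1 of its number. The log2 change with medium was -0.44 in WT (SE 0.35, adjusted p = 0.64, edgeR) and -0.68 in KO (SE 0.32, adjusted p = 0.152). The KO value passed with the library number as a block (-0.71, adjusted p = 0.024) and without conditioned KO library 0 (-1.004, adjusted p = 0.0321), in a range of 0.024 to 0.397. KO and WT differed by -0.03 in unconditioned medium (2 SE interval -0.74 to 0.68) and by -0.27 in conditioned medium (-0.91 to 0.37). The authors' deposited table marked Plaur for medium in KO (-0.69, q = 0.0103), and none of the 9 genes for medium in WT, where 8.76% of tests were marked.

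Beside these low values, the summed level of 8 smooth muscle and pericyte markers was 666 and 877 CPM in conditioned KO libraries 2 and 1, against 1954 CPM in conditioned KO library 0 and 1344 to 2508 CPM elsewhere. None of the 8 was at 0 in every library, and Acta2 and Tagln, genes of the contractile apparatus, made up most of the sum with medians of 1000.0 and 423 CPM. They were lowest in conditioned KO libraries 1 and 2, Acta2 at 217 and 150 CPM and Tagln at 89.3 and 64.5 CPM. Cnn1 (1.89 and 1.19 CPM), Myh11 (0.487 and 0.216 CPM) and the pericyte marker Rgs5 (0.487 and 0.27 CPM) were also lowest in these libraries. The pericyte markers Cspg4 and Pdgfrb did not follow. Cspg4 was at 158 and 151 CPM there, over a range of 50.6 to 158 CPM. Pdgfrb was at 398 and 290 CPM, over a range of 287 to 649 CPM. Des, at 12.1 and 8.36 CPM over a range of 1.74 to 39 CPM, did not follow either. Conditioned WT library 1, in which Plau and Tfpi2 were also low, had a sum of 2105 CPM. Whether these cells contribute to the low values was not tested.

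Serpine2, the gene of protease nexin-1 (XLOC_000897, chromosome 1, 79794321 to 79858665), was at 1476 and 1257 CPM in unconditioned WT and at 1141, 1028 and 1190 CPM in conditioned WT. In unconditioned KO it stayed within 1347, 1350 and 1359 CPM, and in conditioned KO it spread over 1449, 936.2 and 795.3 CPM. Conditioned KO library 0 was the second highest of all 11 and libraries 1 and 2 the lowest. Serpinf1, the gene of PEDF (XLOC_003926, chromosome 11, 75410029 to 75431239), had 1942, 1897 and 1787 CPM in unconditioned KO and 2015, 1168 and 1026 CPM in conditioned KO, where library 0 was the highest of all 11 and libraries 1 and 2 again the lowest. In WT it had 1758 and 1645 CPM without conditioning and 1507, 1460 and 1745 CPM with it. Unconditioned KO libraries all lay above the unconditioned WT ones (17.1% of all genes did not overlap), with a log2 difference of 0.14 (SE 0.26, adjusted p = 0.998, edgeR).

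Neither serpin passed a test in any comparison of the edgeR fit of all 11 libraries. With medium, Serpine2 had a log2 change of -0.29 in WT (SE 0.23, adjusted p = 0.643) and -0.35 in KO (SE 0.21, adjusted p = 0.246), and Serpinf1 had -0.12 (SE 0.26, adjusted p = 0.906) and -0.42 (SE 0.23, adjusted p = 0.219). Without conditioned KO library 0 both were called in KO, Serpine2 at -0.64 (adjusted p = 0.00393, range 0.00393 to 0.617) and Serpinf1 at -0.77 (adjusted p = 0.00166, range 0.00166 to 0.559). Without it, Serpinf1 was also called between genotypes in conditioned medium, at -0.51 (adjusted p = 0.0171, range 0.0105 to 0.993).

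**Figure D3:**
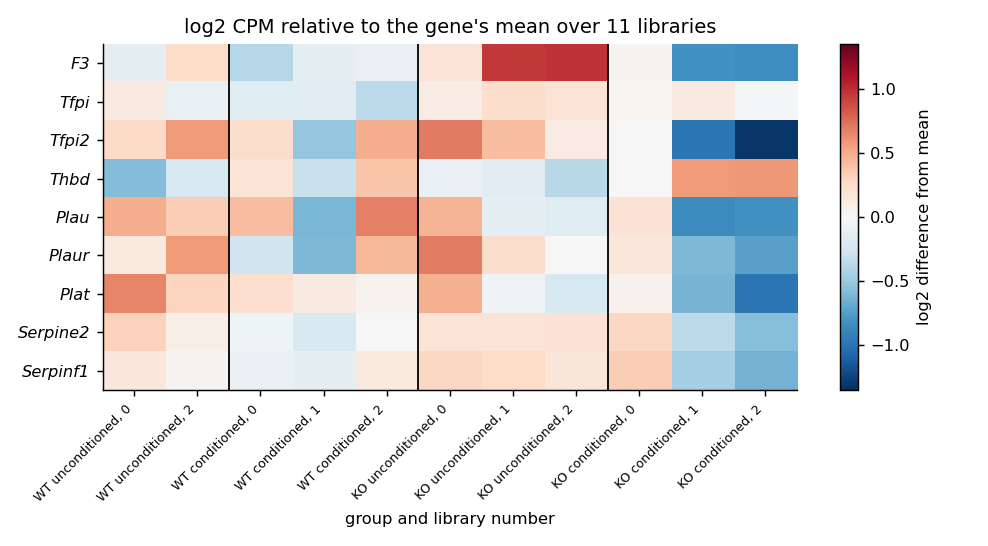
Log2 CPM of each gene (rows) minus its mean over the 11 libraries (columns, by group and library number); red is above and blue below the mean. Conditioned KO libraries 1 and 2 are blue for 7 genes, red for Thbd and near 0 for Tfpi, and unconditioned KO libraries 1 and 2 are the deepest red for F3.

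Across the 11 libraries the 9 genes did not share 1 profile. As a description over libraries that share groups and depth, the Pearson correlation of log2 CPM was 0.95 between Serpine2 and Serpinf1, 0.91 between Tfpi2 and Plaur, 0.89 between Tfpi2 and Plau, and 0.82 between Plau and its receptor Plaur. F3 was closest to Serpinf1 (0.76) and had 0.33 with Plau. Thbd was negative with all 8 others, from -0.31 with Tfpi to -0.74 with Serpine2. Tfpi had values between -0.31 and 0.40 with every other gene. Among all genes tested, the profile most like that of F3 was Nuak1 (0.978), followed by Tmed2 (0.977) and the shared locus of Acads and Gm13826 (0.974). Ugdh, Sipa1 and Arrb1 (0.988, 0.983 and 0.980) were closest to Tfpi2, and Spry2, Pla1a and Sdpr (0.982, 0.976 and 0.975) to Plaur. Klf10, Arfgef1 and Gclc (0.974, 0.963 and 0.961) came closest to Plau, and Sesn3 and Stat3 (0.977 and 0.973) to Plat. For Serpine2 these were Prickle1, Smarcd3 and Pxmp4 (0.965, 0.965 and 0.961), and for Serpinf1 Kremen1, Sdc1 and Trp53cor1 (0.973, 0.967 and 0.965). Thbd was nearest to the Nme1 and Nme2 locus, Soat1 and Cnih4 (0.951, 0.947 and 0.946), and Tfpi to Csrp3, Paqr4 and Plekha4 at lower values (0.892, 0.890 and 0.887).

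The other genes of coagulation, plasmin control and serpins were taken from a list of 44 symbols with 45 table entries, of which 34 passed the filter. With conditioned medium over both genotypes, 4 rose and 6 fell, against 10.4% of all genes called higher and 10.1% called lower. In KO 3 rose and 5 fell (9.68% and 8.58% of all genes), in WT 1 rose and 0 fell (1.23% and 0.552%), and 0 were called between genotypes in either medium or in the difference of medium effects. The median log2 change of the 34 was -0.10 in WT and -0.46 in KO. At an unadjusted p under 0.05, 9 of the 34 passed for medium in WT (15.2% of all genes), 15 in KO (36.9%) and 15 over both genotypes (36.3%), 2 between genotypes in unconditioned medium (2.15%), 0 in conditioned medium (13.9%) and 1 in the difference (3.03%). Without conditioned KO library 0, a setting chosen after seeing the data for this list, 5 rose and 11 fell over both genotypes (20.9% and 20.7% of all genes), and these included all 10 called with it. In KO 3 rose and 13 fell (22.9% and 21.9%) and in WT 1 rose and 1 fell (3.56% and 3.19%). Between genotypes in conditioned medium 0 were higher and 8 lower in KO (17.3% and 15.9%), and in the difference 0 were higher and 3 lower (5.22% and 5.24%).

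A2m, the gene of the broad protease trap alpha-2-macroglobulin, fell with conditioned medium. It had 16.3 and 13.8 CPM in unconditioned WT and 14.4, 17.8 and 22.2 CPM in unconditioned KO. In conditioned medium it had 3.35, 1.49 and 2.58 CPM in WT and 4.48, 1.035 and 0.485 CPM in KO. All 6 conditioned libraries lay below all 5 unconditioned ones, a separation in either direction that 16.4% of all genes showed and 0 of the 9 genes did. The log2 change over both genotypes was -2.89 (SE 0.45, adjusted p = 0.00271, edgeR), and -3.59 without conditioned KO library 0 (adjusted p = 6.16e-05). Thbs1, the gene of the matrix protein thrombospondin-1, fell by 0.90 (SE 0.25, adjusted p = 0.0335). Pros1 (protein S, the cofactor of activated protein C), Serpinh1 (the collagen chaperone HSP47) and the protease gene Prss23 fell by 0.65, 0.66 and 0.67 (adjusted p = 0.011, 0.0185 and 0.0426).

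From the list, 4 genes rose over both genotypes. Igf2r, the receptor of IGF2 and of mannose 6-phosphate proteins that also binds Plaur, rose by 0.74 on the log2 scale (SE 0.11, adjusted p = 0.00195, edgeR) and was the only 1 called in WT alone (0.81, SE 0.16, adjusted p = 0.0425). Hgf, the gene of a growth factor that proteases of the urokinase type can activate, rose by 0.62 (SE 0.16, adjusted p = 0.0228). Serpinb8, an intracellular serpin, rose by 1.45 (SE 0.28, adjusted p = 0.00651) from group means of 2.20 and 2.36 CPM to 5.43 and 7.22 CPM. Vwf, the gene of von Willebrand factor and itself an endothelial marker, rose by 1.65 (SE 0.33, adjusted p = 0.00755) but reached at most 2.06 CPM. The zymogens on which these proteins act were almost absent: Plg, F2, F7 and F10, the genes of plasminogen, prothrombin and factors VII and X, never exceeded 0.0657, 0.197, 0.265 and 0.0705 CPM.

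**Figure D4:**
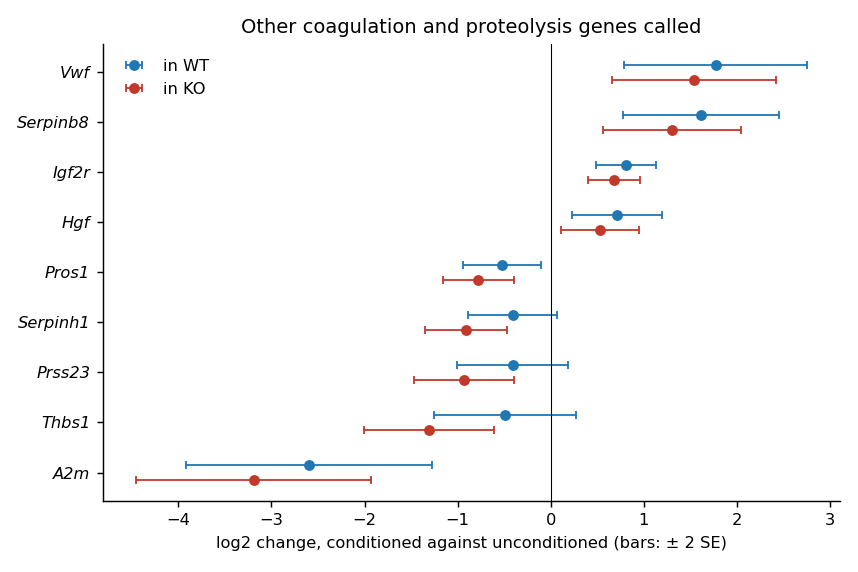
Log2 change with conditioned medium (x axis, bars ± 2 SE) in WT and KO for 9 listed genes called in at least 1 comparison. A2m lies farthest to the left, with a mean change of -2.89, and the points of both genotypes lie on the same side of 0 for all 9.

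Start sites were compared for the 2 genes with more than 1 in the authors' transcript models, Tfpi and Serpinf1; each of the other 7 had 1 transcript. The minor start-site group of Tfpi took 8.38% and 9.09% of its fragments in unconditioned WT, 8.36%, 4.23% and 4.70% in conditioned WT, and 6.31% to 9.07% in KO. Conditioned WT libraries 1 and 2 were the lowest. For Serpinf1, 1 group took 31.8% to 49.8% and the other 50.2% to 68.2% of fragments, with the widest spread inside unconditioned KO. In the authors' deposited table of promoter-use tests, q-values for both genes were 0.970 to 0.999 in the 4 comparisons. Within the main Tfpi group, the transcripts of 3027 and 2993 bases traded shares between libraries. The share of the longer transcript was 55.1% and 71.7% in unconditioned WT and 18.4% to 35.1% in conditioned WT. In conditioned KO it was 15.4% in library 0 but 69.8% and 67.1% in libraries 1 and 2, and in unconditioned KO 53.0%, 24.2% and 31.4%. These shares are Cuffdiff's estimates for transcripts that overlap, and no test was made of them.

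**Figure D5:**
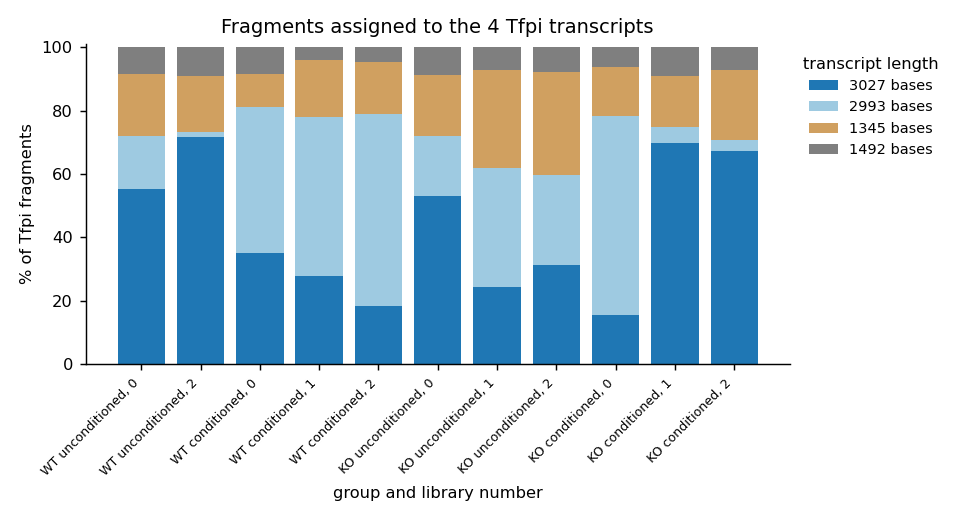
Percent of Tfpi fragments (y axis) that the authors' software assigned to each of its 4 transcripts, named by length in bases, in the 11 libraries (x axis). The 3027-base share ranges from 15.4% to 71.7% and differs within conditioned KO as much as between groups.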

How the data were processed

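RNA of 12 samples in 4 groups was sequenced from TruSeq libraries, a kit without strand information. The submitters' processing notes name TopHat2 2.0.9, Cufflinks 2.1.1, Cuffdiff 2.1.1 and CASAVA 1.8.2, and the mouse build GRCm38 (mm10). The raw fragments per gene, start-site group and transcript are, per the file headers, estimated counts (expected counts); 94.9% of the gene values were whole within 1e-06. FPKM values are, per the file headers, fragments per kilobase and library depth, scaled by the authors between libraries. The authors' deposited tables of start-site and promoter-use tests hold log2 fold changes, p-values and q-values from Cuffdiff, which were copied. Transcript lengths in bases are other values given per the file headers.

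Entries without a gene symbol (1714, with 2.69% to 3.10% of fragments) were left out. Cuffdiff marked 50 entries as failed and 24 as too deep, and these kept their table values. Libraries 0 and 1 of unconditioned WT had equal values in 91.8% of 17538 detected genes (a chi-square of 759 with 15474 df; the closest other pair had 94766 with 15124 df) and entered as their mean. Counts were rounded and fitted by robust quasi-likelihood in edgeR 4.0.16 (R 4.3.3) after TMM scaling and filterByExpr, in 1 fit of 4 groups with 7 residual degrees of freedom over 13599 genes and a typical biological coefficient of variation of 0.238. A gene is called at a Benjamini-Hochberg adjusted p under 0.05, adjusted over every gene tested. Each SE is the absolute log2 change over the root of its F statistic. The script was tested on simulated data. The p-values reflect only how these samples vary, which may be technical.

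Alternatives were DESeq2 1.42.0, RLE scaling, limma 3.58.1 on log2(FPKM + 0.1) and log2(FPKM + 1), no filter, no robust estimation, all 12 libraries, leaving out libraries, and a block of the library number. Deviations from group means correlated between same-numbered KO libraries (r = 0.35, 0.24 and 0.32). Unlike-numbered KO libraries gave -0.36 to 0.28. These ranges overlap, so whether the numbers pair the KO libraries is not settled. The edgeR fit reported had no block, and results with the block are given beside it. In WT, same-numbered libraries gave -0.15 and 0.44, and unconditioned library 0 with conditioned library 1 gave 0.48. The members and lists were chosen with earlier results of these data known. All 9 genes are named, as are the other listed genes called in any comparison and the 3 genes most correlated with each member, except 2 that are not reported here.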

Additional observations from a re-analysis of the deposited data

How the results depend on the processing

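The counts of the 9 genes called moved as follows. For the medium effect in KO, 1 was called as reported, 2 with all 12 libraries counted and with limma on log2(FPKM + 0.1) or log2(FPKM + 1), 3 with DESeq2 and 3 with the replicate block, whichever number the merged WT library took. The block called Tfpi2, Plaur and Plat and lost F3 (adjusted p = 0.0577). For the mean medium effect, where 2 were called, the replicate block called 4 (Tfpi2, Thbd, Plaur and Plat, losing F3), or 3 with the merged WT library as number 1, which also lost Thbd. In the remaining comparisons the block called 0 of 9 and changed no call. Chosen after seeing the data, leaving out both KO libraries of number 0 called 1 (KO against WT, unconditioned), 7 (KO against WT, conditioned), 6 (medium in KO), 8 (mean medium effect) and 2 (difference between genotypes). Leaving out single libraries gave 0 to 4 for KO against WT in conditioned medium, 0 to 7 for medium in KO, 0 to 7 for the mean medium effect and 0 to 1 for the difference; the upper ends came without conditioned KO library 0. The causes were not tested.

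Small log2 changes reversed. KO against WT in unconditioned medium turned to 0.001 for Tfpi2 without a filter on low counts, to 0.058 and 0.047 for Tfpi2 and Plaur with all 12 libraries, and to 0.118, 0.098 and 0.042 for Tfpi2, Plaur and Serpine2 with the block. With the block, the medium effect on Plau in WT became 0.143 and the Thbd difference between genotypes -0.083. Single libraries left out gave these ranges that cross 0: for KO against WT in unconditioned medium, Serpine2 -0.126 to 0.106, Tfpi2 -0.159 to 0.171 and Plaur -0.247 to 0.206; in conditioned medium, Plaur -0.581 to 0.091, Serpine2 -0.359 to 0.095 and Serpinf1 -0.506 to 0.023; for Plau with medium in WT, -0.422 to 0.147; and for the difference between genotypes, Tfpi -0.013 to 0.203, Thbd -0.084 to 0.293, Serpine2 -0.346 to 0.116, Plaur -0.552 to 0.121 and Plat -0.545 to 0.031. Where a group kept 1 library, it was assumed to vary like the others. Depth was alike in all libraries, and the number of libraries limits precision.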
